A study of Mus musculus with 3 samples.

Results

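The genes described here are 8 markers of mouse pluripotent cells: Dppa2, Dppa3, Dppa4, Dppa5a, Utf1, Tdh, L1td1 and Lin28a. They were chosen by symbol from the 32285 genes counted in each library, and each symbol belonged to 1 Ensembl identifier. The study exposed mouse embryonic stem (ES) cells to tubercidin, an adenosine analogue, and read their polyadenylated RNA cell by cell with droplet barcoding. All cells were of the E14 line, of 129/Ola background, grown on gelatin in medium with serum and leukaemia inhibitory factor. The control received the solvent DMSO for 6 h, and the treated groups were kept in 10 uM tubercidin for either 3 h or 6 h. The 3 h group has no DMSO control of its own duration. Each condition was 1 library of 1 cell line, so the spread between cultures is unknown, no difference was tested and no p-value is given.

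These genes are read as marks of the pluripotent state because their RNA is present in ES cells and largely lost on differentiation. DPPA2 and DPPA4 are chromatin-binding proteins that act as a pair and help to activate early embryonic genes. DPPA3, also called Stella, protects the maternal genome of the zygote from loss of DNA methylation and keeps the maintenance factor UHRF1 from chromatin. DPPA5A is a small protein with a KH-type fold, the fold of many RNA-binding proteins. UTF1 is a chromatin-associated factor and a target of OCT4 and SOX2. TDH, threonine dehydrogenase, is the mitochondrial enzyme with which mouse ES cells break down threonine to feed one-carbon metabolism. L1TD1 is an RNA-binding protein derived from a transposable element, and LIN28A binds messenger RNAs and blocks the maturation of let-7 microRNAs.

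The files held between 29353325 and 115656427 unique molecular identifiers (UMIs, each standing for 1 captured RNA molecule). Cells numbered 2031 (control), 2365 (3 h) and 2926 (6 h). A control cell had a median of 48452 UMIs. The median was 11877 at 3 h and 8004.5 at 6 h, 4.08-fold and 6.05-fold below the control. Levels are therefore given in CPM, counts scaled so that all UMIs in the cells of a library come to 1000000. CPM shows a gene's share of the RNA, and cannot show how many molecules a cell held. Fewer captured molecules, less RNA per cell and a different cell yield cannot be told apart here. Any 2 libraries shared 1 cell barcode. The 8 ES cell markers Pou5f1, Sox2, Nanog, Zfp42, Esrrb, Klf4, Tdgf1 and Fbxo15 were all above 1 CPM in every library, and summed to 1575 (control), 1371 (3 h) and 1307 CPM (6 h). Primitive endoderm markers summed to between 6.72 and 10.9 CPM, trophoblast markers to between 2.98 and 4.25 CPM, fibroblast markers to between 1.65 and 2.59 CPM, and markers of the 2-cell-like state to at most 0.932 CPM. Germ cell markers summed to 52.3 (control), 36.2 (3 h) and 49.9 CPM (6 h), primed or formative markers to 15.6, 9.43 and 7.05 CPM, and neural markers to 12.4, 5.82 and 6.44 CPM. Their part in the values below was not tested.

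Taken by their share of the RNA, the genes stood higher at 3 h than most genes did, and no longer did so at 6 h. At 3 h, 6 of the 8 were higher than in the control and 2 were lower, with a median log2 ratio of 0.21. The median over the 7884 genes whose mean level reached 10 CPM was -0.27, and 7 of the 8 genes lay above it. At 6 h, 3 were higher and 5 lower, with a median log2 ratio of -0.13 beside -0.12 over all genes, and 4 lay above the median gene. From 3 h to 6 h, 3 were higher and 5 lower, with a median of -0.25 beside 0.14, and 1 of the 8, L1td1, lay above the median gene. Both tubercidin libraries were compared with the same control, so these directions are not independent of each other.

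No gene of the group changed level by 2-fold or more in either direction, in any of the 3 comparisons. Of all 7884 genes, 6.43% passed 2-fold in one direction or the other at 3 h, 0.888% being higher and 5.54% lower. At 6 h 6.75% passed it, 2.33% higher and 4.41% lower. From 3 h to 6 h 1.8% did, 1.64% higher and 0.165% lower. Of the 8 genes 7 passed the minimum of 10 CPM, and Dppa3 did not. With so few genes, a count of 0 is close to what these shares would give.

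**Figure D1:**
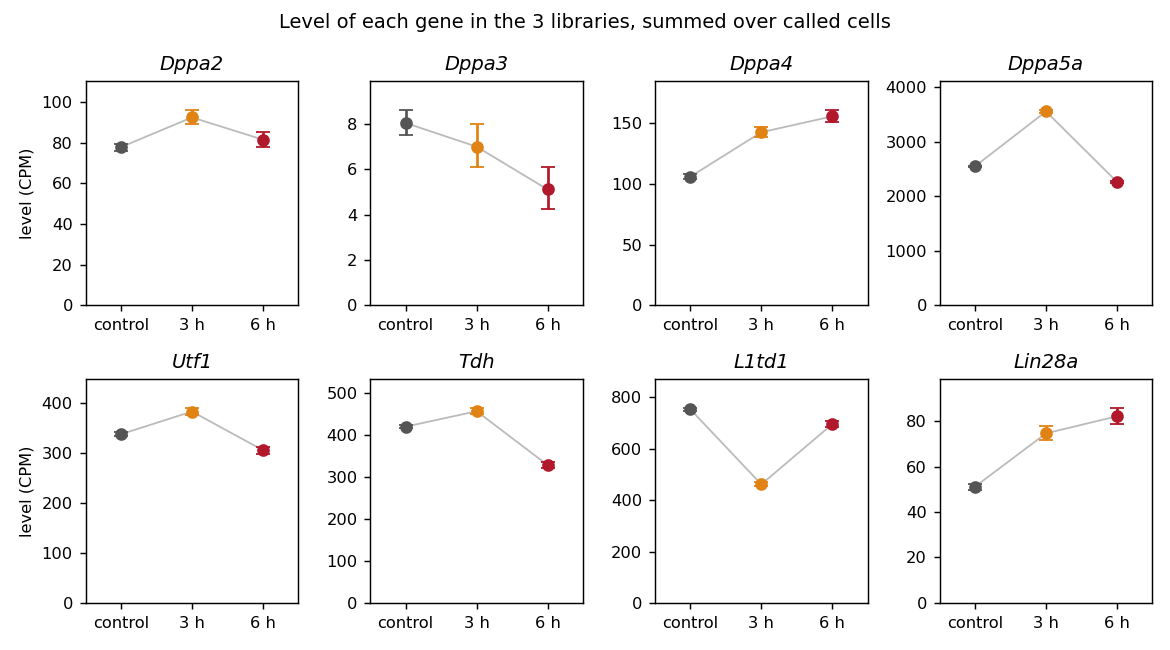
Level of each gene in CPM (vertical axes, each starting at 0) in the control, 3 h and 6 h libraries, 1 point per library, with exact 95% Poisson intervals that cover counting error only. Dppa4 and Lin28a were highest at 6 h, Dppa2, Dppa5a, Utf1 and Tdh were highest at 3 h, and L1td1 was lowest at 3 h.

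The plot of levels shows that the genes did not follow 1 course. Dppa4 and Lin28a were above the control at both times. Dppa5a, Utf1 and Tdh were above it at 3 h and below it at 6 h. L1td1 was far below it at 3 h and close to it at 6 h, and Dppa3 was lowest at 6 h. Dppa2 was raised at 3 h and close to the control at 6 h. Ratios are log2 ratios of CPM + 1, and the intervals beside them are exact 95% intervals of the ratio without the added 1, covering counting error only.

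The chromatin factors Dppa4 and Dppa2 are neighbours. In the GENCODE annotation of GRCm38 (mm10), Dppa4 lies at chr16:48283733-48294237 and Dppa2 at chr16:48303908-48319723, both on the plus strand and 9671 bp apart, with no other counted gene between them. Dppa4 was at 106 (control), 143 (3 h) and 156 CPM (6 h). Its log2 ratio to the control was 0.42 (0.38 to 0.48) at 3 h and 0.55 (0.50 to 0.61) at 6 h. Of all genes tested, 93.2% had a lower ratio at 3 h and 92.1% at 6 h. Dppa2 was at 77.9 (control), 92.5 (3 h) and 81.6 CPM (6 h). It was above the control by 0.25 (0.19 to 0.31) at 3 h. At 6 h its ratio of 0.07 had an interval that held 0 (-0.00 to 0.14). Between 3 h and 6 h the adjacent genes went different ways: Dppa2 was lower by a log2 ratio of -0.18 (-0.27 to -0.10) and Dppa4 higher by 0.13 (0.06 to 0.19). The sign of Dppa4 in that comparison turned to -0.10 with median-of-ratios or trimmed-mean (TMM) scaling.

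Dppa3 (chr6:122626410-122630272, plus strand) was the rarest of the genes, with 843 (control), 209 (3 h) and 126 UMIs (6 h). These came to 8.04 CPM (7.50 to 8.60), 6.99 CPM (6.08 to 8.01) and 5.10 CPM (4.25 to 6.08). The log2 ratio to the control was -0.18 at 3 h, with an interval that held 0 (-0.43 to 0.02), and it turned to 0.04 with median-of-ratios scaling. At 6 h it was -0.57, and the ratio without the added 1 was -0.65 (-0.94 to -0.38). Nanog, the pluripotency factor that is the next counted gene downstream on the same strand, 77217 bp away, was at 77.4 (control), 62.4 (3 h) and 50.2 CPM (6 h). Within the last 400 bases of the Dppa3 transcript, 133 match the pseudogene Dppa3-ps with 99.2% identity. That pseudogene and 3 others with at least 90% identity are not among the counted genes, so reads from them could not be separated here.

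Dppa5a (chr9:78367052-78368177, minus strand) was the most abundant, at 2549 (control), 3555 (3 h) and 2263 CPM (6 h). A control cell had on average 131.6 of its UMIs. At 3 h its log2 ratio was 0.48 (0.47 to 0.49), above that of 94.5% of genes tested. At 6 h it was -0.17 (-0.18 to -0.16). From 3 h to 6 h it was lower by a log2 ratio of -0.65 (-0.67 to -0.64), and only 1.17% of genes tested had a lower ratio. Ooep, an oocyte gene of the same small KH-fold family, is its next neighbour on the same strand, 7932 bp upstream. Ooep was found at 174 (control), 189 (3 h) and 117 CPM (6 h), so it too was highest at 3 h and lowest at 6 h.

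Reads of Dppa5a can be confused with those of other genes. Within its last 400 transcript bases, stretches of at least 90 bases match 10 other annotated genes at 90% identity or more. Of these, 9 are not counted here, and they align over 158 to 219 bases. The counted one is Pigp, a gene of membrane-anchor synthesis with a transcript that carries a copy of Dppa5a sequence, 95.9% identical over 394 bases. The coding bases of Dppa5a from 142 to 354 (chr9:78367239-78367877 of GRCm38, minus strand, exons joined) are printed because they show how few letters separate the 2 genes. The 8 capitals mark the bases at which the Pigp copy differs.
Dppa5a: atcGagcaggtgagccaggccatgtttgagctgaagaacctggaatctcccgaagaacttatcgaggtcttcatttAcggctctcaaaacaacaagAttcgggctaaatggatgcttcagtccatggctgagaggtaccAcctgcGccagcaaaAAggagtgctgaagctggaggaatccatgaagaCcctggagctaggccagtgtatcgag
Counted from 1 at the A of the start codon, with the Dppa5a base first, the differences are G145A, A218G, A238G, A281G, G287A, A296G, A297T and C329G. Pigp itself was counted at 18.6 (control), 15.8 (3 h) and 10.7 CPM (6 h), far below Dppa5a in every library. The level printed for Dppa5a may hold reads of its uncounted copies, which was not tested.

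Utf1 (chr7:139943789-139945112, plus strand) was at 338 (control), 383 (3 h) and 306 CPM (6 h). It was above the control at 3 h by a log2 ratio of 0.18 (0.15 to 0.21) and below it at 6 h by -0.14 (-0.18 to -0.11). Tdh (chr14:63492347-63509092, minus strand) was at 420 (control), 457 (3 h) and 328 CPM (6 h). Its log2 ratio was 0.12 (0.09 to 0.15) at 3 h and -0.35 (-0.39 to -0.32) at 6 h. Among the members, only Dppa3 had a lower ratio than Tdh at 6 h. The antisense gene Gm17232 that overlaps Tdh did not exceed 2.27 CPM.

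L1td1 (chr4:98726734-98738480, plus strand) had a course of its own. It stood at 753 (control), 461 (3 h) and 696 CPM (6 h). The log2 ratio to the control was -0.71 (-0.73 to -0.68) at 3 h and -0.11 (-0.14 to -0.09) at 6 h. From 3 h to 6 h it was higher by 0.59 (0.56 to 0.63), above 91.8% of genes tested. The mean cell held 38.9 (control), 5.83 (3 h) and 5.87 (6 h) of its UMIs, so its mean UMI count in a cell was level between the treated libraries while that of the other 7 genes was lower at 6 h.

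Lin28a (chr4:134003330-134018841, minus strand) was at 51.2 (control), 74.6 (3 h) and 82.1 CPM (6 h). Its log2 ratios of 0.54 (0.47 to 0.62) and 0.67 (0.61 to 0.76) were the highest of the group at both times. At 3 h 95.8% of genes tested had a lower ratio, and at 6 h 94.4%. The ratio of 6 h to 3 h was 0.14 (0.05 to 0.23), and it turned to -0.09 with median-of-ratios and -0.08 with TMM scaling. Its direction against the control held under every scaling by library total or size factor.

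On the scale of UMIs per cell, with no scaling for depth, all 8 genes were lower in both treated libraries. The group summed to 222 (control), 65.4 (3 h) and 33.0 (6 h) UMIs per cell. Dppa5a had 44.9 UMIs in the mean cell after 3 h and 19.1 after 6 h. Lin28a had 2.64 (control), 0.943 (3 h) and 0.693 (6 h). The median UMIs of all genes per cell moved with these values, and what part depth plays was not tested.

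Utf1 and L1td1 stood on opposite sides of the control at 3 h, and both have an entry in the RefSeq promoter table (GRCm38.p6), which holds 3 of the 8 genes. The stretches of 183 bases shown here end before the annotated first exon. They lie at chr7:139943606-139943788 for Utf1 and chr4:98726504-98726686 for L1td1, both on the plus strand. Each ends 67 bases before the RefSeq start of its gene. Between a stretch and the GENCODE start lie 0 (Utf1) and 47 (L1td1) bases. Capitals mark GC boxes, the letters GGGCGG on either strand.
Utf1: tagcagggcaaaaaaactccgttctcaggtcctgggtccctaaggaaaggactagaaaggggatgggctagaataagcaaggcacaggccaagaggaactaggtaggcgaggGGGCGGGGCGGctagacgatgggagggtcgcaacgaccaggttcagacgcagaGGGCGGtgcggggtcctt
L1td1: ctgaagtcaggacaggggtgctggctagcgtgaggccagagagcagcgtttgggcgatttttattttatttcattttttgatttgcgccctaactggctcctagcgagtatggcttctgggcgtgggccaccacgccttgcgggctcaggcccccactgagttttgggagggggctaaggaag
The Utf1 stretch holds 3 GC boxes, of which the first 2 overlap by 1 base, and the L1td1 stretch holds none. Of the 32851 stretches of the same length and place in the table, 21.5% hold a GC box. Neither stretch holds the TATA box letters TATAAA, which 8.49% of all stretches hold on either strand, or the CCAAT box, which 25.5% hold. Neither holds the octamer ATGCAAAT, as 1.17% do, or the SOX letters CATTGTT, as 2.51% do. A match of letters is a description of these windows and shows no binding. Bases between a stretch and the RefSeq start were not searched, so missing letters do not show a promoter without a TATA box.

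**Figure D2:**
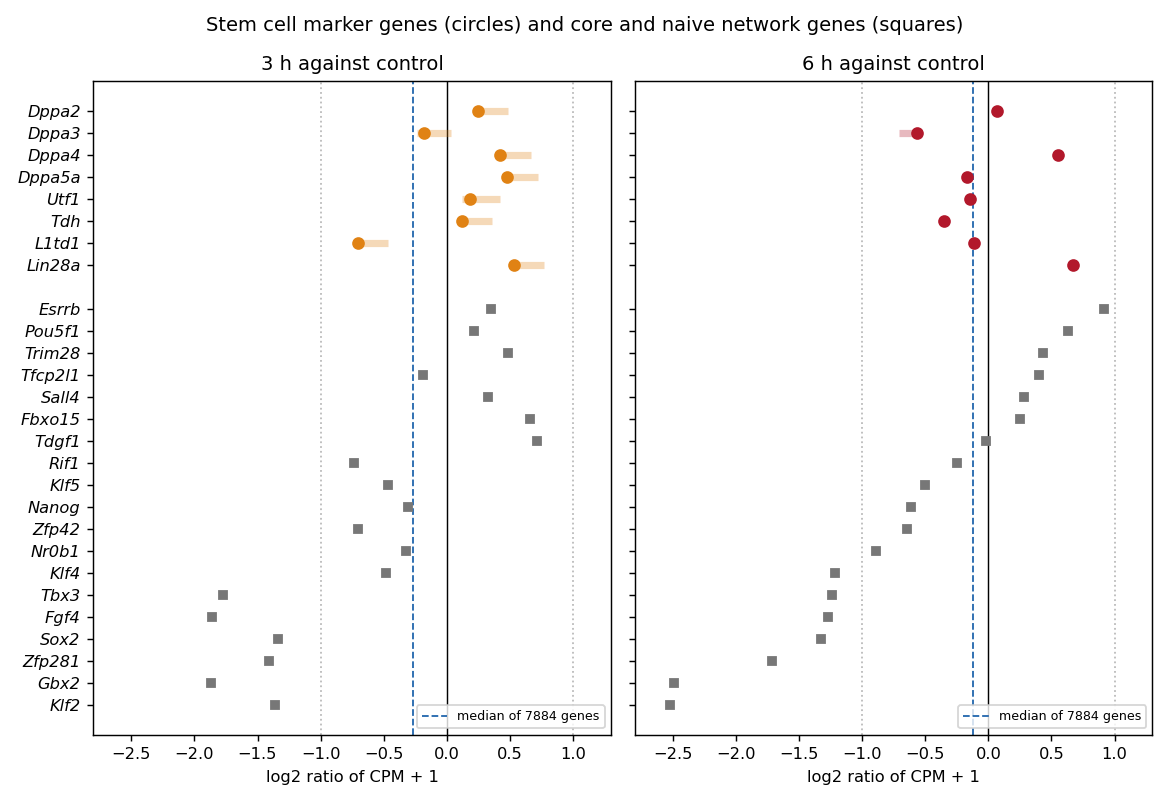
Log2 ratio of CPM + 1 to the control (horizontal axes) after 3 h and after 6 h, for the 8 stem cell marker genes (circles, with a pale bar for the range over all alternatives except UMIs per cell) and 19 genes of the core and naive network (squares). Dotted lines mark 2-fold and the dashed line the median gene: all 8 circles lie within 2-fold at both times, while 6 squares at 3 h and 7 at 6 h lie past 2-fold lower.

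Genes of the core and naive pluripotency network were set beside these markers, as a list of 19 genes that reached a mean of 10 CPM. Most encode transcription factors, and the list also holds others such as the secreted ligand Fgf4. In this list 6 genes at 3 h and 7 at 6 h stood below the control by 2-fold or more, and none was 2-fold higher. The shares of all genes tested were 5.54% lower and 0.888% higher at 3 h, and 4.41% lower and 2.33% higher at 6 h. Its median log2 ratio was -0.47 at 3 h and -0.62 at 6 h, beside -0.27 and -0.12 over all genes. Pou5f1, which encodes OCT4, was at 137 (control), 159 (3 h) and 213 CPM (6 h). Sox2 was at 205 (control), 80.6 (3 h) and 81.1 CPM (6 h), and Nanog, given above beside Dppa3, was lowest at 6 h. At 3 h the highest ratio was that of the co-receptor gene Tdgf1 at 0.71 and the lowest that of Gbx2, a homeobox gene, at -1.87. At 6 h the extremes were Esrrb, a nuclear receptor of the naive network, at 0.92 and the Krüppel-like factor Klf2 at -2.52. The plot of ratios shows that none of the 8 marker genes reached the -1.34 and -1.33 of Sox2.

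The genes around Tdh, Lin28a and Dppa3 in their pathways were counted in the same way, and none of them passed 2-fold in any comparison. With 6.43%, 6.75% and 1.8% of all genes past 2-fold in the 3 comparisons, lists of this size would hold few such genes or none, so this count says nothing particular about them. Of 12 other genes of threonine breakdown and one-carbon metabolism, 4 were higher and 8 lower at 3 h, and 6 were higher and 6 lower at 6 h. Their medians were -0.28 and -0.03, beside -0.27 and -0.12 over all genes. Of all genes tested, 27.4% were higher at 3 h and 39.7% at 6 h. The mitochondrial serine enzyme Shmt2 was the highest at 3 h with a log2 ratio of 0.59, and Mat2a, which makes the methyl donor S-adenosylmethionine, the lowest with -0.87. At 6 h the highest was Gcat, the enzyme that follows TDH in threonine breakdown, with 0.36, and the lowest Mthfd2, a mitochondrial folate enzyme, with -0.90. Gcat was at 55.8 (control), 58.1 (3 h) and 71.8 CPM (6 h), so it was highest in the library in which Tdh was lowest.

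Of 13 other genes of the LIN28 and let-7 pathway, 3 were higher and 10 lower at 3 h, with a median of -0.34. At 6 h 6 were higher and 7 lower, with a median of -0.01. The shares of all genes tested that were higher were 27.4% at 3 h and 39.7% at 6 h, with medians of -0.27 and -0.12. Lin28b, the paralogue of Lin28a, had the highest ratio at 3 h with 0.15 and a ratio of 0.01 at 6 h, at 30.7 (control), 34.2 (3 h) and 30.9 CPM (6 h). Dgcr8, a subunit of the microprocessor that cuts primary microRNAs, was lowest at 3 h with -0.92. At 6 h Dicer1, which cuts precursor microRNAs, was highest with 0.35 and Dis3l2, the nuclease that degrades uridylated let-7 precursors, lowest with -0.51.

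Of 8 genes of DNA methylation, including the DPPA3 partner Uhrf1, 2 were higher and 6 lower at 3 h, with a median of -0.59. At 6 h 4 were higher and 4 lower, with a median of -0.16. Beside them, 27.4% of all genes tested were higher at 3 h and 39.7% at 6 h, with medians of -0.27 and -0.12. Dnmt3l, a cofactor of the de novo methyltransferases, had the highest ratio at both times, 0.87 and 0.74. Tet2, which oxidises methylcytosine, had the lowest at both, -0.93 and -0.62. Uhrf1 was at 122 (control), 140 (3 h) and 177 CPM (6 h). The remaining gene named Dppa, Dppa1, was close to nothing in all libraries, at 0.0191 (control) and 0.0669 CPM (3 h), with no UMI at 6 h, which allows up to 0.122 CPM.

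Shares of cells with a UMI depend on depth, so every cell was thinned to 4000 UMIs, which left out the 0 (control), 122 (3 h) and 284 (6 h) cells that had fewer. Dppa4 was then found in 33.5% (31.4 to 35.6) of the control cells, 43.6% (41.6 to 45.7) of those at 3 h and 46.1% (44.2 to 48.0) of those at 6 h. Lin28a was found in 18.9% (17.2 to 20.6), 25.4% (23.6 to 27.3) and 26.7%. For both genes the control share lay below those of the treated libraries and outside their counting intervals. L1td1 was found in 91.5 (control), 78.2 (3 h) and 88.8% (6 h) of cells. Dppa5a was found in 99.8 (control), 99.9 (3 h) and 99.7% (6 h) of cells. Utf1 was in 71.9, 75.0 and 69.3% of cells and Tdh in 76.4, 80.2 and 71.0%, both highest at 3 h as in their CPM. Dppa2 ranged from 27.2 to 30.1%. Without thinning, the shares followed the depth: Dppa2 was in 94.9 (control), 63.1 (3 h) and 46.0% (6 h) of cells, and Lin28a in 83.9, 54.1 and 46.6%.

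**Figure D3:**
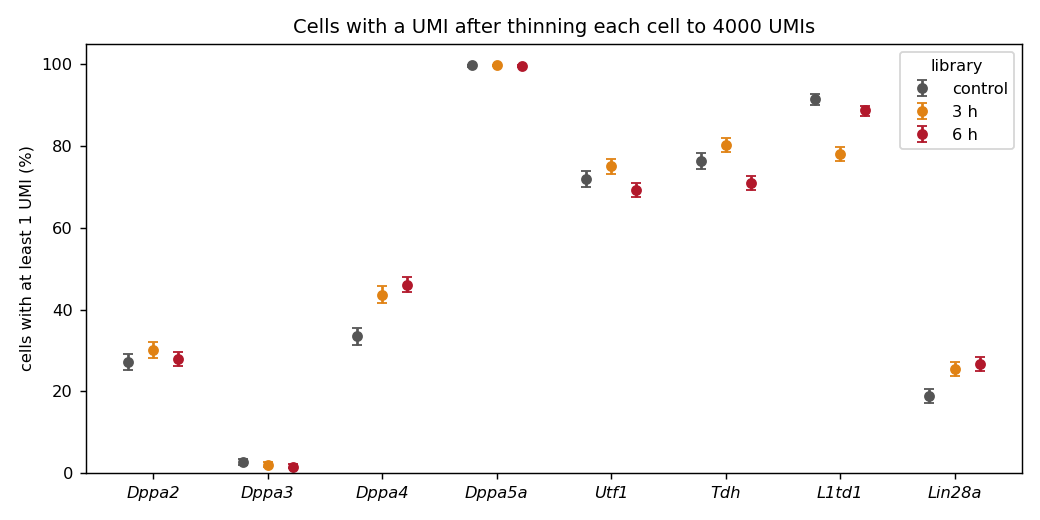
Percent of cells with at least 1 UMI of each gene (vertical axis) after thinning each cell to 4000 UMIs, 1 point per library with exact 95% Clopper-Pearson intervals that cover counting error only. Dppa4 and Lin28a were found in fewer control cells than treated cells, L1td1 in fewer cells at 3 h, and Dppa3 in under 3% of cells in every library.

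The background share of the genes was taken from barcodes outside the cells. In 10000 barcodes of each library ranked by UMIs below its cells, which had medians of 343, 210 and 138 UMIs, Dppa5a stood at 1807 (control), 3868 (3 h) and 2094 CPM (6 h). Free RNA thus held more Dppa5a than the cells at 3 h and less in the other libraries, by a log2 ratio of -0.50 in the control and -0.11 at 6 h. Dppa3 had only 16 (control), 17 (3 h) and 6 (6 h) UMIs there, 4.61, 7.95 and 4.25 CPM. L1td1 was lower in free RNA than in cells in all 3 libraries, at 422, 280 and 381 CPM. Lin28a was higher in free RNA than in cells in the control (70.0 CPM) and after 6 h (108 CPM), and lower after 3 h (58.9 CPM). Subtracting free RNA, set at 10% of the cells' UMIs in every library, left every direction against the control as it was. The true share of free RNA in the cells was not estimated.

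Variation between cells was described gene by gene. It was measured by the Fano factor, the variance over the mean of the UMIs per cell, which is 1 for counting noise alone. Among 1840 control cells thinned to 33000 UMIs, Dppa5a had a Fano factor of 8.34, the 19th highest of 6999 genes, and L1td1 3.76, the 90th highest. For the same relative spread this factor grows with the mean, which was 84.6 (Dppa5a), 24.7 (L1td1) and 1.67 UMIs (Lin28a). The ranks therefore follow abundance in part and do not order the genes by relative spread. Dppa3, with a mean of 0.274 UMIs, was below the minimum of 0.5 for this ranking. Tdh had 2.33 and Utf1 2.04, while the median gene had 1.17. The middle 80% of these cells held from 55 to 116 Dppa5a UMIs and from 14 to 38 L1td1 UMIs. Lin28a (1.33), Dppa4 (1.16) and Dppa2, which lay between them, were near the median gene. At 4000 UMIs per cell, where all libraries can be set side by side, the Fano factor of Dppa5a was 2.06 (control), 2.34 (3 h) and 2.35 (6 h). That of L1td1 was 1.38, 1.44 and 1.49, and that of the median gene between 1.06 and 1.08.

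Correlation between the 8 genes from cell to cell was weak. Across the 1840 control cells, Pearson's r over log(1 + UMIs) for their 28 pairs ranged from -0.15 (Dppa5a and Lin28a) to 0.13 (Utf1 and Tdh), with a median of 0.01. Such weak values in sparse counts are no finding, either of shared variation or of its absence. The genes most like each member except Dppa3 over the same cells were named from 6829 candidates as a description, since all share 1 library. For L1td1 they were Hnrnpa3 (r = 0.44), Hirip3 (0.37) and Lmnb1 (0.36). For Dppa5a they were the ribosomal protein gene Rps2 (0.34), its neighbour Ooep (0.33) and Tpt1 (0.32). For Tdh they were the histone variant gene H2afz (0.31), Lap3 (0.27) and Ccnd3 (0.27), and for Utf1 Mkrn1 (0.28), Npm1 (0.26) and Snu13 (0.25). The best matches of Dppa2 (Tmsb4x, 0.13), Dppa4 (Sms, 0.13) and Lin28a (Hnrnpab, 0.19) were weaker.

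The level of L1td1 moved with the depth of the cell. In the 507 control cells with most UMIs it was at 812 CPM, against 591 CPM in the 507 with fewest. The corresponding values were 478 and 439 CPM at 3 h, and 785 and 557 CPM at 6 h. Within the deepest cells of each library its log2 ratio to the control was -0.76 at 3 h, and within the shallowest it was -0.43. Cells were ranked within each library, so depth was not matched between libraries. The shallowest control cells had a median of 34796 UMIs, above the 18750 (3 h) and 12289 (6 h) of the deepest treated cells. Comparing such cells therefore cannot show what depth does to a direction. Directions against the control were the same within the deepest and within the shallowest cells as over all cells for 7 of the 8 genes. The exception was Utf1 at 3 h, which was at 340 CPM against 355 CPM in the shallowest cells, a log2 ratio of -0.06.

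Cells were also ranked by the thinned UMIs of 8 naive-network genes (Esrrb, Klf4, Klf5, Tfcp2l1, Zfp42, Tbx3, Nr0b1 and Fbxo15). In the control, Dppa3 was at 5.80 CPM in the 507 cells with most of these UMIs. It was at 9.91 CPM in the 507 with fewest, a log2 ratio of -0.68 (-1.07 to -0.48). The interval pools UMIs over cells and covers counting error only, while 10% of control cells held 90.2% of the Dppa3 UMIs. It is therefore too narrow, and whether a few cells carried the difference was not tested. Lin28a was also lower in the cells with most naive-network UMIs, at 47.3 against 53.8 CPM, a log2 ratio of -0.18 (-0.30 to -0.07). Tdh went the other way, at 453 and 387 CPM (0.23), as did L1td1, at 781 and 706 CPM (0.15). In the treated libraries the ratio of Dppa3 was positive, 0.16 (-0.43 to 0.79) at 3 h and 0.56 (-0.20 to 1.66) at 6 h, with intervals that held 0. Tdh had a ratio of -0.01 (-0.08 to 0.06) at 3 h and 0.14 (0.05 to 0.24) at 6 h. L1td1 was again higher in the cells with most naive-network UMIs, at 526 against 407 CPM at 3 h and 766 against 678 CPM at 6 h.

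Dppa3 RNA was concentrated in few cells. In the control, 287 of 2031 cells (14.1%) had at least 1 of its UMIs, and the 10% of cells with most held 90.2% of them, with up to 29 in 1 cell. At equal depth (33000 UMIs), 1631 of 1840 control cells had none, and 50 cells with 3 or more held 62.1% of the 504 UMIs. At 4000 UMIs per cell it was found in 2.66% (2.00 to 3.46) of the control cells, 1.92% (1.39 to 2.57) of those at 3 h and 1.55% (1.12 to 2.10) of those at 6 h. In 10 further random draws the share ran from 1.97 to 2.71% in the control and from 2.14 to 2.67% at 3 h, so these 2 libraries cannot be put in order. At 6 h it ran from 1.44 to 1.93%.

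What else those cells expressed was examined after these values had been seen, and it is a description with no test. Against control cells without Dppa3, the 50 cells with 3 or more UMIs had more Dppa4 (142 against 104 CPM, log2 ratio 0.45) and more Fbxo15 (90.9 against 52.3 CPM, 0.79). Fbxo15 is 1 of the 8 naive-network genes listed above, and the only one of them whose interval lay above 0. Of the other 7, the interval lay below 0 for 6, among them Tbx3 (33.3 against 92.6 CPM, -1.45) and Klf5 (159 against 240 CPM, -0.59), and held 0 for Nr0b1. Core and naive network genes outside these 8 went both ways. Sox2 (252 against 201 CPM, 0.32) and Klf2 (288 against 222 CPM, 0.38) were higher, and most of the others were lower. Dnmt3b, a de novo DNA methyltransferase, was at 128 against 56.5 CPM. The 7 primitive endoderm markers summed to 4.85 CPM in these cells, on 8 UMIs, against 8.53 CPM in cells without Dppa3, and all 7 intervals held 0. Of these endoderm markers 4 had no UMI, which allows each up to 1.82 CPM. The 6 trophoblast markers summed to 4.24 CPM, on 7 UMIs, against 4.35 CPM, and all 6 intervals held 0. The 6 germ cell markers summed to 66.7 against 52.5 CPM. Of their intervals 5 held 0, and that of Nanos3 lay above 0 (18.2 against 10.7 CPM, 0.72). The 4 neural markers summed to 12.1 against 11.9 CPM. Among them the interval of Pax6 lay above 0 (8.48 against 3.92 CPM, 0.95). That of Sox1 lay below 0 (no UMI against 3.62 CPM), and 2 held 0. No interval of the fibroblast markers or of the primed or formative markers lay clear of 0. The 2-cell-like markers had no UMI in either group of cells.

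**Figure D4:**
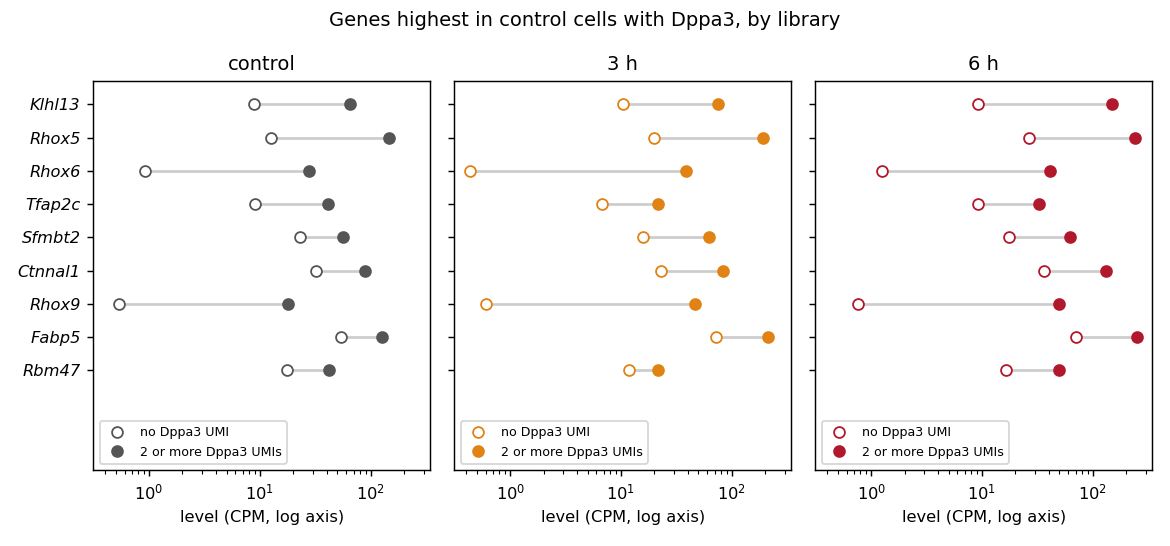
Level in CPM (horizontal log axes) of 9 genes with a high ratio in the control, in cells with at least 2 Dppa3 UMIs (filled) and in cells with none (open), in each library. In all 3 libraries each filled point lies to the right of its open point, from 123 (control), 38 (3 h) and 20 (6 h) Dppa3 cells. The genes were chosen by their ratio in the control, so only the treated libraries stand apart from the choice.

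Genes with the highest ratios in these control cells included Klhl13, Rhox5, Rhox6, Tfap2c, Sfmbt2, Ctnnal1, Rhox9, Fabp5 and Rbm47. Rhox5, Rhox6 and Rhox9 are homeobox genes of a cluster on the X chromosome expressed in reproductive and extraembryonic tissue, and Tfap2c encodes a transcription factor of trophoblast and germ cells. Since the control chose them, the treated libraries, which took no part in the choice, were looked at in the same way, with cells of at least 2 Dppa3 UMIs against cells with none. Rhox9 was at 47.0 against 0.609 CPM at 3 h and at 49.5 against 0.757 CPM at 6 h. Rhox6 was at 38.6 against 0.430 CPM and at 41.3 against 1.26 CPM. Klhl13 was at 75.5 against 10.4 CPM and at 149 against 9.17 CPM. All 9 named genes were higher in the Dppa3 cells of both treated libraries. The interval of the ratio lay above 0 for 8 of the 9 at 3 h, with Rbm47 as the exception, and for 9 of the 9 at 6 h. Some of these ratios rest on few UMIs. In the 20 Dppa3 cells at 6 h, Tfap2c had 8, Rhox6 10, and Rhox9 and Rbm47 12 each. The intervals pool UMIs over cells and cover counting error only, and whether a few cells carried a gene was not tested. The Dppa3 cells were somewhat deeper, with medians of 54659 against 47772 UMIs (control), 14323 against 11750 (3 h) and 11238.5 against 7966.5 (6 h). When cells with more than 2 times their library's median UMIs were left out, 9 of the 9 intervals at 3 h and 8 at 6 h lay above 0. The plot of these genes shows the same order of filled and open points in both treated libraries. The control shows it too, but the genes were chosen there.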

How the data were processed

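RNA of single cells was measured in 3 libraries, 1 per condition. The authors deposited unnormalised UMI counts for each gene in each barcode. Per the file headers they came from Cell Ranger 7.1.0, and from mm10 per the submitters' processing notes, with no cell filter. The annotation release and the handling of intronic reads are not given in the sources used here. A barcode counted as a cell from 1/10 of the 99th percentile of UMIs among the top 3000 barcodes of its library (11034, 2961 and 2107 UMIs), with 500 or more genes and no more than 20% mitochondrial UMIs. Doublets were kept. Counts were summed over cells, scaled to CPM and compared as log2 ratios of CPM + 1. Genes whose mean reached 10 CPM were counted at 2-fold. The 95% intervals are exact: Poisson for levels, conditional binomial for ratios and Clopper-Pearson for shares. A count of 0 allows up to 3 counts.

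Every member was named, with the extreme genes of each list, and Pou5f1, Sox2 and Nanog. The 3 most correlated genes were named for L1td1, Dppa5a, Tdh and Utf1, and only the first for Dppa2, Dppa4 and Lin28a. Those of Dppa3 are not given as such. The members and lists were chosen with earlier results of these data known. Neighbouring genes, Uhrf1, the levels of Gcat and Lin28b, and the genes of the Dppa3 cells (ranked with 10 CPM added) were named after their values were seen. Of the 10 genes ranked highest in the Dppa3 cells, 1 is not reported here. Alternatives covered the cell limits, doublets, scaling (median-of-ratios and TMM from edgeR 4.0.16 in R 4.3.3), free RNA, cell weights, pseudocount, filter and thinning. Scripts were tested on simulated data. Positions came from GENCODE M21 and promoters from RefSeq. Computation ran in Python 3.11.15 with pandas 2.3.3, scipy 1.17.1, numpy 2.4.6 and, for plots, matplotlib 3.10.9.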

Additional observations from a re-analysis of the deposited data

Results flagged for a closer look

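For 3 of the 8 genes the 2 exposures lay on opposite sides of the control. The log2 ratio of Dppa5a was 0.48 after 3 h and -0.17 after 6 h. For Utf1 the values were 0.18 and -0.14, and for Tdh 0.12 and -0.35. With 1 library per time and a shared control, the difference between the times was not tested. The levels behind these ratios are given above, and the median gene stood at -0.27 at 3 h and -0.12 at 6 h.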

How the results depend on the processing

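Scaling was the choice that moved the values most. With median-of-ratios factors the median of all genes moved from -0.27 to -0.04 at 3 h and from 0.14 to -0.08 between the times, and the median of the 8 genes was 0.45 at 3 h and -0.48 from 3 h to 6 h. With TMM factors it was 0.40 at 3 h, -0.16 at 6 h and -0.47 from 3 h to 6 h. Between the times Dppa4 turned to -0.10 under both, and Lin28a to -0.087 (median-of-ratios) and -0.083 (TMM). Median-of-ratios factors gave 139 genes at least 2-fold higher and 166 lower at 3 h (TMM 126 and 202), in place of 70 and 437, and both gave 57 and 45 between the times, in place of 129 and 13. As UMIs per cell, the median was -1.80 at 3 h, -2.72 at 6 h and -0.74 from 3 h to 6 h, with 8, 8 and 2 of the genes at least 2-fold lower. At 3 h Dppa2 was then at -1.76, Dppa4 at -1.59, Dppa5a at -1.55, Utf1 at -1.84, Tdh at -1.91 and Lin28a at -1.46. Dppa4 was at -2.04 and Lin28a at -1.89 after 6 h, and at -0.45 and -0.43 between the times. With a mean of at least 50 CPM, 22 genes were 2-fold higher and 95 lower at 3 h. After 6 h these were 42 and 75, and from 3 h to 6 h 23 and 4. With no filter these were 226 and 855, 679 and 707, and 389 and 33, from more genes tested. Thinning to 2000 UMIs moved 23 of 24 shares outside their counting intervals, and 10 of 24 Fano factors by more than 10% of their value. Lower depth lowers such shares by itself, so their move does not measure how firm they are. Chosen after seeing the data, minimums of 1 and 3 Dppa3 UMIs per cell gave 9 and 8 of the 9 genes at 3 h, and 9 and 8 at 6 h, with intervals above 0. No paired analysis was possible because each condition has 1 library, and for the same reason no replicate could be left out. Depth limits Dppa3 most, with 126 UMIs at 6 h.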
